A study of Triticum aestivum with 4 samples.

Results

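The genotypes Line4 and Misr2 of spring bread wheat (*Triticum aestivum*) were compared under normal sowing by quantitative real-time PCR of flag leaves. Line4 is a thermosusceptible breeding line and Misr2 a thermotolerant cultivar, and both were grown in the field without any transgene or added agent. The members are the 2 normal-sowing samples of the 4 in the series, titled as nonstressed, and all 8 of the 8 target genes. The other 2 samples are the same genotypes sown late, which exposed the plants to heat from anther development onwards. Leaves of internal rows were taken about anthesis, in 3 biological replicates for each genotype and sowing date. The groups were read from the sample titles. The description and the treatment tag of the samples follow the genotype and not the sowing date, since they mark both Line4 samples as heat stressed and both Misr2 samples as non-stressed. They thus go against the titles of 2 of the 4 samples, normally sown Line4 and late-sown Misr2.

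Each gene was measured in 9 wells per group, which gave 72 wells for Line4 and 72 wells for Misr2 under normal sowing. The measured quantity is the threshold cycle (Ct), the PCR cycle at which fluorescence crosses the threshold. A higher Ct means less template, and 1 cycle corresponds to a factor of 2 if amplification is complete. The normal-sowing wells lay between 26.4 and 35.3 cycles of the 40 cycles run. Successive sets of 3 wells were averaged into 3 replicates, as the labels do not say which wells belong together. The deposited table holds no reference gene, so a difference in raw Ct also carries any difference in the amount of cDNA between samples. Further readings that cancel it were therefore made, namely the gap in Ct between 2 genes of the same replicate, and Ct relative to the mean of the 8 genes, with the replicates of different genes matched by their place in the well order. That matching is not given by the labels, and the deviations of replicates at the same place had a median correlation over the 28 gene pairs of −0.449 in Line4 (11 pairs positive) and 0.438 in Misr2 (16 pairs positive).

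The panel covers 3 groups of genes that are studied together in heat-stressed leaves. HSP70 and HSP90 are molecular chaperones that bind unfolded or immature proteins, and both are known from heat responses, although constitutive forms also act in unstressed cells. Superoxide dismutase converts superoxide to hydrogen peroxide, which catalase then degrades, mainly in peroxisomes. Peroxisomes multiply by elongation of the membrane, for which PEX11 proteins are known, followed by constriction and fission. FIS1A and DRP5B belong to the fission machinery, and from Arabidopsis both are also known at other organelles, mitochondria for FIS1A and chloroplasts for DRP5B. All 8 target transcripts matched protein-coding entries of the wheat annotation, and the catalase entry carried the symbol CAT1. Wheat is a hexaploid, and a Ct can combine transcripts of homoeologous copies.

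Under normal sowing, 6 of the 8 transcripts crossed the threshold later in Line4 than in Misr2, by 1.45 to 4.98 cycles. *TaCAT1* differed most, followed by *TaFIS1A*, *TaPEX11.3*, *TaDRP5B*, *TaSOD* and *TaHSP90*. *TaHSP70* crossed it earlier in Line4, by 0.38 cycles, and *TaPEX11.4* did not pass the test. In all, 7 of the 8 genes were called with limma at an adjusted p under 0.05, which is 87.5% of the genes tested, since the members are the whole panel. Of the genes tested, 75.0% were called with a higher Ct in Line4, meaning less template, and 12.5% with a lower Ct. The replicates of Line4 and Misr2 did not overlap in those 7 genes, also 87.5%. An exact permutation test (two-sided) of 3 replicates against 3, which has 20 arrangements, gave 0.1 for each of the 7, the smallest p that this design allows. The median of the 8 differences was 1.92 cycles.

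**Figure D1:**
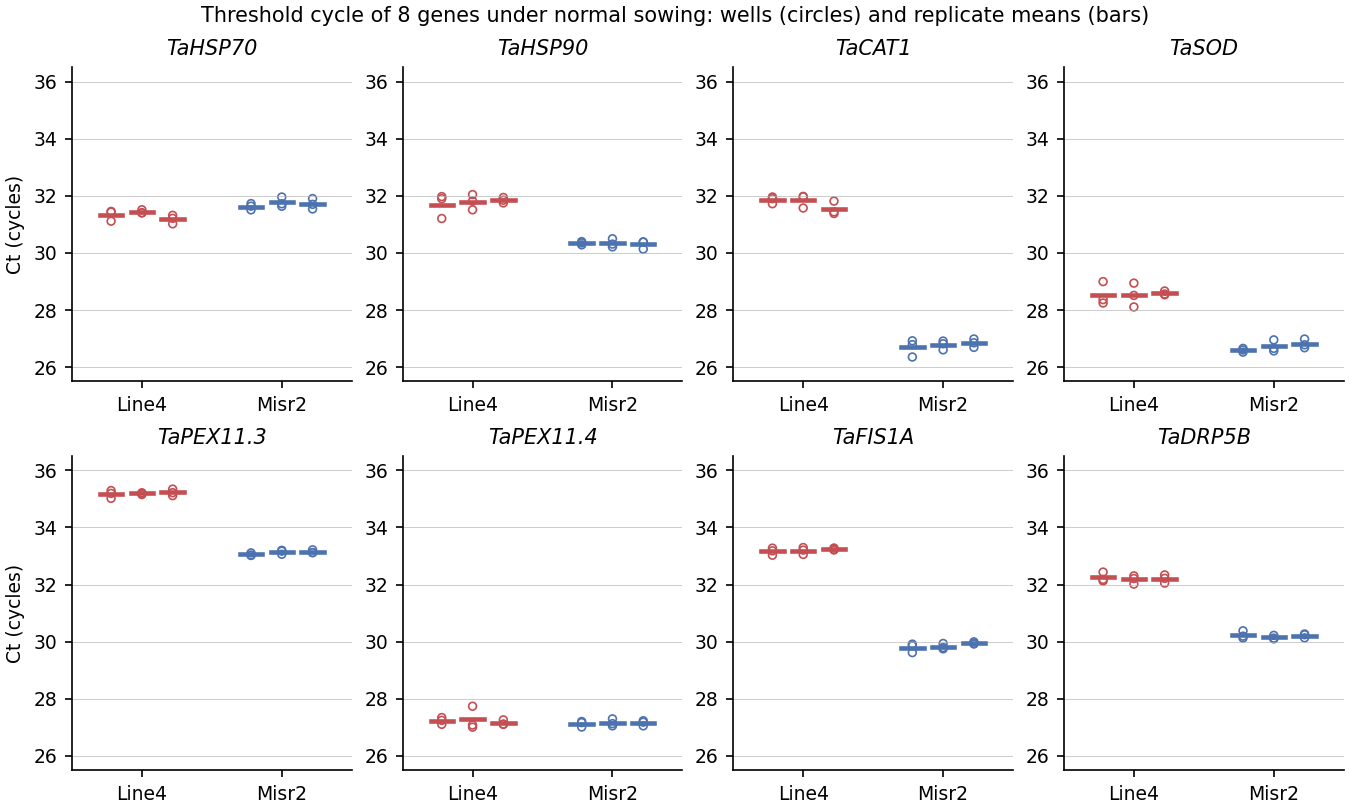
Raw Ct (cycles) under normal sowing in one panel for each of the 8 genes, with Line4 left of Misr2; circles are wells and bars are replicates (means of 3 wells). The Line4 bars lie above the Misr2 bars in 6 genes, below them in *TaHSP70*, and overlap with them in *TaPEX11.4*.

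The chaperone genes differed in opposite directions. *TaHSP70* had a Ct of 31.33, 31.44 and 31.18 in the Line4 replicates, against 31.62, 31.77 and 31.71 in the Misr2 replicates. Every Line4 replicate was thus below every Misr2 replicate, with means of 31.32 ± 0.129 in Line4 and 31.70 ± 0.0741 in Misr2 (SD, n = 3 each). The difference was −0.38 cycles (SE 0.0760, 95% interval −0.55 to −0.22, limma adjusted p = 0.000116), which corresponds to 1.31 times as much template in Line4. *TaHSP90* had a Ct of 31.69, 31.79 and 31.85 in Line4, against 30.34, 30.34 and 30.30 in Misr2. The 2 groups lay more than a cycle apart, and *TaHSP90* crossed the threshold 1.45 cycles later in Line4 (SE 0.104, 95% interval 1.23 to 1.67, limma adjusted p = 1.80e-10), or 2.73-fold less template. The wells of the third Line4 replicate were evenly spaced, by 0.0952 cycles. Line4 wells 3, 4 and 5, which belong to replicates 1 and 2, were also evenly spaced, at 31.203579, 31.509081 and 31.814583 cycles. The part of this spacing in the result was not tested.

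The 2 chaperone transcripts crossed the threshold in opposite order in the 2 genotypes. The gap *TaHSP70* minus *TaHSP90*, which needs no reference gene, was −0.36, −0.35 and −0.66 cycles in Line4, against 1.28, 1.43 and 1.41 cycles in Misr2. *TaHSP70* was the earlier of the pair in each Line4 replicate and the later in each Misr2 replicate. The gap differed by −1.83 cycles (SE 0.136, limma adjusted p = 5.15e-14 over the 28 gene pairs).

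Both antioxidant transcripts crossed the threshold later in Line4, *TaCAT1* by far the more. *TaCAT1*, the catalase gene, had a Ct of 31.86, 31.84 and 31.54 in Line4, against 26.69, 26.78 and 26.84 in Misr2. The lowest Line4 replicate was well above the highest Misr2 replicate. The difference was 4.98 cycles (SE 0.0899, 95% interval 4.79 to 5.17, limma adjusted p = 1.99e-19), which corresponds to 31.5-fold less template in Line4. *TaSOD*, for superoxide dismutase, had a Ct of 28.54, 28.52 and 28.59 in Line4, against 26.59, 26.73 and 26.81 in Misr2. These groups did not overlap either, and *TaSOD* was 1.83 cycles later in Line4 (SE 0.0988, 95% interval 1.63 to 2.04, limma adjusted p = 2.32e-12), or 3.57-fold less template.

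In Misr2 catalase and superoxide dismutase transcripts crossed the threshold almost together, and in Line4 they did not. The gap *TaCAT1* minus *TaSOD* was 3.32, 3.32 and 2.96 cycles in Line4, against 0.09, 0.05 and 0.03 cycles in Misr2. The gap was thus wider by 3.14 cycles in Line4 (SE 0.132, limma adjusted p = 2.02e-20). The written values of both genes had features that should be read beside these results. In 14 pairs of wells of different genes over the whole series the last 5 decimals were the same, and all 14 paired *TaCAT1* with *TaDRP5B*. Among normal-sowing wells they involved 2 *TaCAT1* wells of Line4 and 4 of Misr2, and 2 *TaDRP5B* wells of each genotype. Without those wells, *TaCAT1* was 5.04 cycles and *TaDRP5B* 1.99 cycles later in Line4, and both remained called. Some matches crossed the sowing dates, as normal-sowing Misr2 *TaCAT1* wells 4, 6 and 9 matched late-sown Misr2 *TaDRP5B* wells. A *TaDRP5B* value of normally sown Misr2, 30.219341, also shared its decimals with a value of late-sown Misr2, 32.219341. For *TaSOD*, all 9 Line4 wells were written with fewer than 5 decimals, against 4 of the 135 other normal-sowing wells, and the part of this in the result was not tested.

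Of the 4 peroxisome genes, *TaFIS1A*, *TaPEX11.3* and *TaDRP5B* crossed the threshold later in Line4, and *TaPEX11.4* did not pass the test. *TaPEX11.3*, of the family that elongates the peroxisome membrane, had a Ct of 35.17, 35.19 and 35.22 in Line4, against 33.05, 33.14 and 33.15 in Misr2. The 2 groups were far apart relative to their spread. The difference was 2.08 cycles (SE 0.0683, 95% interval 1.93 to 2.22, limma adjusted p = 9.75e-16), or 4.22-fold less template in Line4. All 9 Line4 wells of this gene were above 35 cycles, where few template copies remain, against 0 of the 9 Misr2 wells. The other member of the family measured, *TaPEX11.4*, had a Ct of 27.23, 27.28 and 27.16 in Line4, against 27.13, 27.16 and 27.15 in Misr2. These replicates overlapped, and the difference was 0.07 cycles (SE 0.0756, 95% interval −0.09 to 0.23, limma adjusted p = 0.339). The interval for the ratio of template, Line4 over Misr2, was 0.850 to 1.06.

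The fission genes differed by unequal amounts. *TaFIS1A*, which encodes a membrane anchor of the fission machinery, had a Ct of 33.16, 33.18 and 33.24 in Line4, against 29.79, 29.83 and 29.95 in Misr2. No replicate of one genotype came near those of the other. The difference was 3.34 cycles (SE 0.0719, 95% interval 3.19 to 3.49, limma adjusted p = 1.85e-18), or 10.1-fold less template in Line4. *TaDRP5B*, which encodes a dynamin-related GTPase that constricts the organelle, had a Ct of 32.25, 32.18 and 32.20 in Line4, against 30.23, 30.15 and 30.21 in Misr2. Here too the groups were separate, with a difference of 2.01 cycles (SE 0.0638, 95% interval 1.88 to 2.14, limma adjusted p = 7.40e-16), or 4.03-fold less template in Line4.

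Within the peroxisome group, 5 of the 6 gaps between genes differed between the genotypes, beside 25 of all 28 gaps (89.3%), so the share does not set this group apart. The gap *TaPEX11.4* minus *TaFIS1A* was −5.93, −5.91 and −6.08 cycles in Line4, against −2.67, −2.67 and −2.79 cycles in Misr2, a difference of −3.26 cycles (SE 0.108, limma adjusted p = 5.21e-23). The 2 PEX11 transcripts averaged 7.97 ± 0.0819 cycles apart in Line4 and 5.97 ± 0.0375 cycles apart in Misr2 (SD, n = 3 each), so that the gap was 2.00 cycles wider in Line4 (SE 0.119, limma adjusted p = 2.15e-16). *TaFIS1A* crossed the threshold later than *TaDRP5B* in each Line4 replicate and earlier in each Misr2 replicate. Their gap averaged 0.99 cycles in Line4 and −0.34 cycles in Misr2, a difference of 1.33 cycles (SE 0.111, limma adjusted p = 8.99e-13). *TaPEX11.3* minus *TaFIS1A* was narrower in Line4, at 2.00 cycles against 3.26 cycles in Misr2. *TaPEX11.4* minus *TaDRP5B* averaged −4.99 cycles in Line4 and −3.05 cycles in Misr2. The gap *TaPEX11.3* minus *TaDRP5B* was 2.98 cycles in Line4 and 2.92 cycles in Misr2. It differed by 0.07 cycles (95% interval −0.15 to 0.29, limma adjusted p = 0.538) and its replicates overlapped.

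Over the whole panel, 25 of the 28 gaps passed the test, or 89.3%, of which 9 were higher (32.1%) and 16 lower (57.1%) in Line4. The sign of a gap depends on which gene is named first, and the 28 gaps are derived from 8 differences, so they are not independent. The variances were moderated over the gaps all the same, so the adjusted p-values can be far smaller than those of an unmoderated fit. For *TaHSP70* minus *TaHSP90* the unmoderated fit gave an adjusted p of 7.28e-06, against 5.15e-14 with limma. That fit called 25 gaps too. The replicates did not overlap in 26 gaps (92.9%), and the gap changed by more than 1 cycle in 21. The median absolute change was 1.86 cycles. In 9 gaps the mean had opposite signs in Line4 and Misr2, so that the order of the pair was turned round. The 3 widest changes all involved *TaCAT1* or *TaHSP70*. The gap *TaHSP70* minus *TaCAT1* was −0.53, −0.40 and −0.36 cycles in Line4, against 4.93, 4.99 and 4.87 cycles in Misr2, a difference of −5.36 cycles (SE 0.108, limma adjusted p = 1.04e-28). *TaHSP70* was thus slightly ahead of catalase in Line4 and far behind it in Misr2. The gap *TaCAT1* minus *TaPEX11.4* changed by 4.90 cycles and *TaHSP70* minus *TaFIS1A* by −3.72 cycles.

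**Figure D2:**
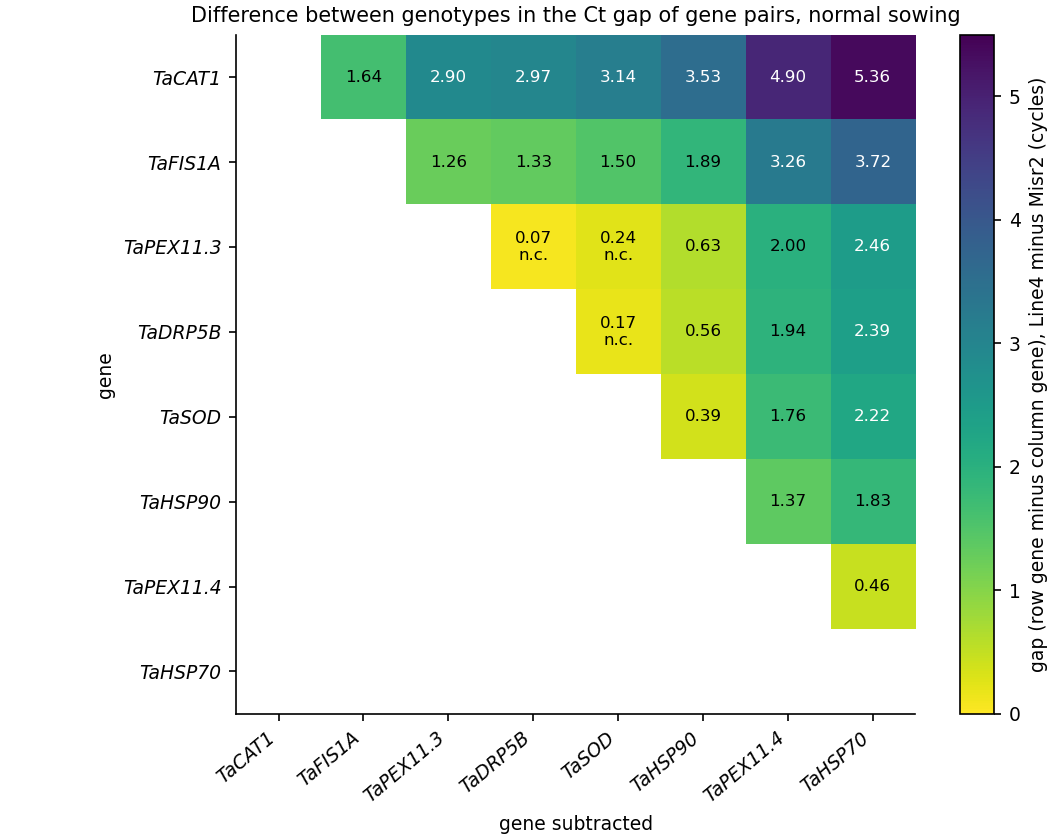
Line4 minus Misr2 difference (cycles) of the gap in Ct, gene of the row minus gene of the column, under normal sowing; genes are ordered by their raw difference, so that every value is above 0, colour gives the size, and n.c. marks gaps not called by limma at an adjusted p under 0.05. The widest change is that of *TaCAT1* minus *TaHSP70*, at 5.36 cycles, and the 3 gaps that were not called lie among *TaSOD*, *TaPEX11.3* and *TaDRP5B*.

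The gaps gave an order of the genotype differences that does not rest on cDNA input. *TaCAT1* exceeded *TaFIS1A* by 1.64 cycles (limma adjusted p = 3.11e-14), and *TaFIS1A* exceeded *TaPEX11.3* by 1.26 cycles (limma adjusted p = 8.47e-12). None of the 3 gaps among the next 3 genes, *TaPEX11.3*, *TaDRP5B* and *TaSOD*, passed the test with the 4 groups fitted together. Neighbours in that stretch differed by 0.07 and 0.17 cycles (limma adjusted p = 0.538 and 0.183), and *TaSOD* minus *TaPEX11.3* differed by −0.24 cycles (unadjusted 95% interval −0.48 to −0.00195, limma adjusted p = 0.052) with replicates that did not overlap. With only the normal-sowing groups fitted, *TaSOD* minus *TaPEX11.3* and *TaSOD* minus *TaDRP5B* were called (limma adjusted p = 0.00502 and 0.0439). An unmoderated fit of the 4 groups called neither (adjusted p = 0.0659 and 0.263), and the replicates of *TaSOD* minus *TaDRP5B* overlapped. *TaSOD* exceeded *TaHSP90* by 0.39 cycles (limma adjusted p = 0.00667), a call that was lost with each well as a replicate and with medians of wells, and *TaHSP90* exceeded *TaPEX11.4* by 1.37 cycles (limma adjusted p = 8.41e-13). *TaPEX11.4* exceeded *TaHSP70*, the last in the order, by 0.46 cycles (limma adjusted p = 0.000385).

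The mean Ct of the 8 genes was 31.40 ± 0.0270 in Line4 and 29.48 ± 0.0434 in Misr2 under normal sowing (SD, n = 3 each). The Misr2 normal-sowing sample stood apart from the other 3, as late-sown Line4 averaged 31.69 cycles and late-sown Misr2 31.70 cycles. In 6 of the 8 genes, all but *TaHSP70* and *TaPEX11.4*, every replicate of normally sown Misr2 was below every replicate of the other 3 groups. More cDNA in that sample and higher levels of many of the 8 transcripts cannot be told apart in raw Ct. Relative to the panel mean, 5 of the 8 genes were called (62.5%), 2 with a higher Ct (25.0%) and 3 with a lower Ct (37.5%) in Line4. The replicates did not overlap in 6 of the 8 genes (75.0%). The 8 values of a replicate sum to 0, so a gene far to one side moves the others to the other side. They are thus not independent, although their variances were moderated together. For *TaHSP70* an unmoderated fit gave an adjusted p of 3.02e-09, against 3.33e-29 with limma, and 5 genes were called there too.

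Relative to the panel, *TaHSP70* and *TaPEX11.4* were earlier in Line4, and *TaCAT1* and *TaFIS1A* later. *TaHSP70* lay −0.07, 0.01 and −0.19 cycles from the panel mean in Line4, against 2.19 to 2.28 cycles in the Misr2 replicates, a difference of −2.31 cycles (SE 0.0784, limma adjusted p = 3.33e-29). *TaPEX11.4* lay −4.17, −4.15 and −4.21 cycles from it in Line4, against −2.30, −2.33 and −2.36 cycles in Misr2, a difference of −1.85 cycles (SE 0.0772, limma adjusted p = 8.87e-26). These groups did not overlap, whereas on raw Ct *TaPEX11.4* overlapped. *TaCAT1* lay 0.46, 0.41 and 0.17 cycles from the panel mean in Line4, against −2.74, −2.71 and −2.67 cycles in Misr2, a difference of 3.05 cycles (SE 0.0829, limma adjusted p = 6.93e-33). *TaFIS1A* averaged 1.79 cycles above it in Line4 and 0.38 cycles above it in Misr2, a difference of 1.42 cycles (SE 0.0765, limma adjusted p = 1.36e-21).

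The other 4 genes differed less between the genotypes relative to the panel. *TaHSP90* differed by −0.47 cycles (SE 0.0892, limma adjusted p = 6.10e-06), the opposite sign to its raw difference, and with the panel mean taken without *TaCAT1* it differed by −0.04 cycles and was no longer called. *TaPEX11.3* differed by 0.16 cycles (limma adjusted p = 0.0706), *TaDRP5B* by 0.09 cycles (limma adjusted p = 0.297) and *TaSOD* by −0.09 cycles (limma adjusted p = 0.325), and none of the 3 passed the test. With the panel mean taken without *TaCAT1*, these 3 were called at 0.59, 0.52 and 0.35 cycles, and *TaSOD* changed sign.

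**Figure D3:**
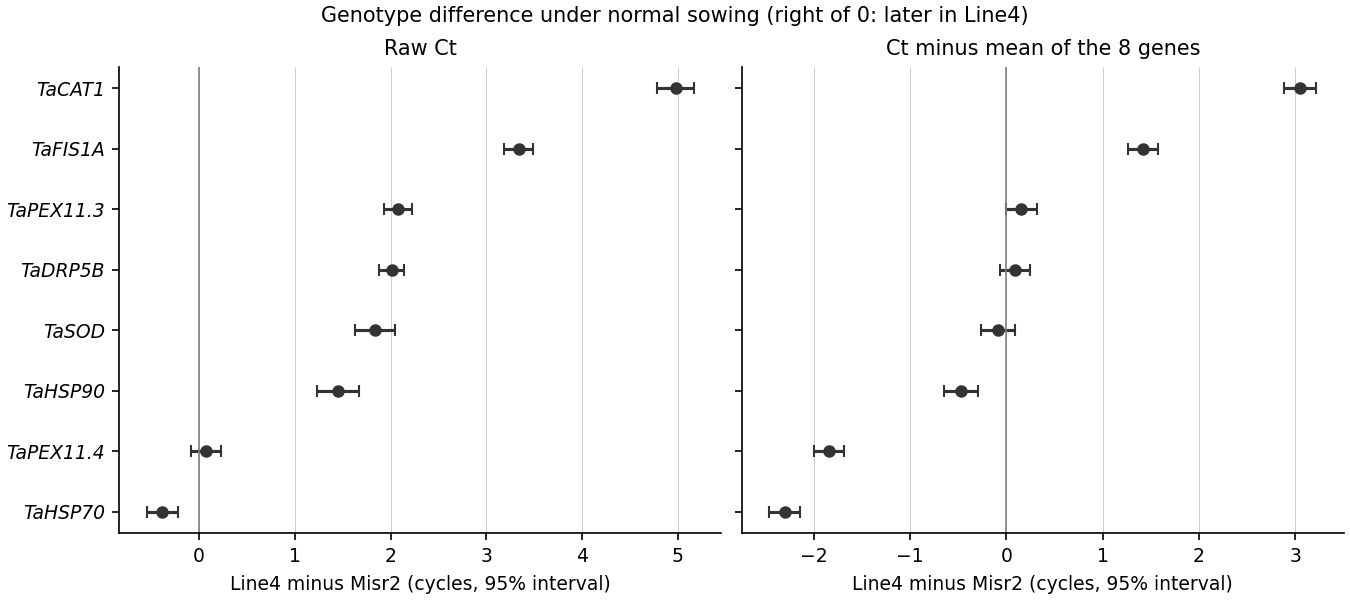
Line4 minus Misr2 difference (cycles) under normal sowing for each of the 8 genes, on raw Ct (left) and on Ct minus the mean of the 8 genes (right); points are differences of the means of 3 replicates, and bars are 95% intervals of the limma fit. On raw Ct 6 genes lie right of 0, and relative to the panel *TaCAT1* and *TaFIS1A* lie right of 0 and *TaHSP70*, *TaPEX11.4* and *TaHSP90* left of it.

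The genotype difference under normal sowing was set against that of the same genotypes sown late, which share no sample with it. Decimals of some Misr2 *TaCAT1* and *TaDRP5B* wells recurred between the dates, as given above, and late-sown wells with recurring decimals were never left out. The raw difference depended on the sowing date in 7 of 8 genes by the limma contrast (87.5%), and it was the more positive under normal sowing in all 7. Under normal sowing 7 of the 8 differences were above 0, against 4 of 8 under late sowing. These counts include differences that did not pass the test. They were *TaPEX11.4* under normal sowing (0.07 cycles, limma adjusted p = 0.339) and *TaSOD* under late sowing (0.00 cycles, limma adjusted p = 0.977). The 8 differences spanned 5.36 cycles under normal sowing and 3.58 cycles under late sowing. Their mean was 1.92 cycles under normal sowing and −0.01 cycles under late sowing, so the contrast on raw Ct also holds this shift of the whole panel.

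*TaCAT1* was 4.98 cycles later in Line4 under normal sowing and 1.15 cycles later under late sowing, a difference between the dates of 3.83 cycles (95% interval 3.56 to 4.10, limma adjusted p = 2.28e-15). *TaFIS1A* differed by 3.34 cycles under normal sowing and by −0.18 cycles under late sowing, and its dates differed by 3.52 cycles (95% interval 3.31 to 3.74, limma adjusted p = 4.69e-16). The *TaCAT1* and *TaFIS1A* differences were thus both wider under normal sowing. *TaPEX11.3* differed by 2.08 cycles under normal sowing and by −0.32 cycles under late sowing, where all 9 Misr2 wells were above 35 cycles. *TaSOD* differed by 1.83 cycles under normal sowing, and under late sowing by 0.00 cycles (95% interval −0.21 to 0.21, limma adjusted p = 0.977). The late-sown Line4 wells of *TaSOD* lay between 27.69 and 29.99 cycles. Their SD between wells of a replicate, 0.736 cycles, was the highest of any gene and group. *TaDRP5B* differed by 2.01 cycles under normal sowing and 0.41 cycles under late sowing.

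For the genes at the other end of the order, *TaPEX11.4* differed by 0.07 cycles under normal sowing and by −1.88 cycles under late sowing. The replicates that overlapped under normal sowing were thus separate under late sowing, where Line4 averaged 26.31 cycles and Misr2 28.19 cycles. *TaHSP70* differed by −0.38 cycles under normal sowing and by −0.96 cycles under late sowing. *TaHSP90* was later in Line4 at both dates, by 1.45 cycles under normal sowing and 1.70 cycles under late sowing. The difference between the dates, −0.25 cycles, did not pass the test (95% interval −0.56 to 0.06, limma adjusted p = 0.105). All 9 late-sown Line4 wells of this gene were above 35 cycles. Of these, wells 7, 8 and 9, the third replicate, were all written as 35.056232. Wells 5, 6 and 7 were evenly spaced, at 35.740938, 35.398585 and 35.056232 cycles. The part of these features in the result was not tested.

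**Figure D4:**
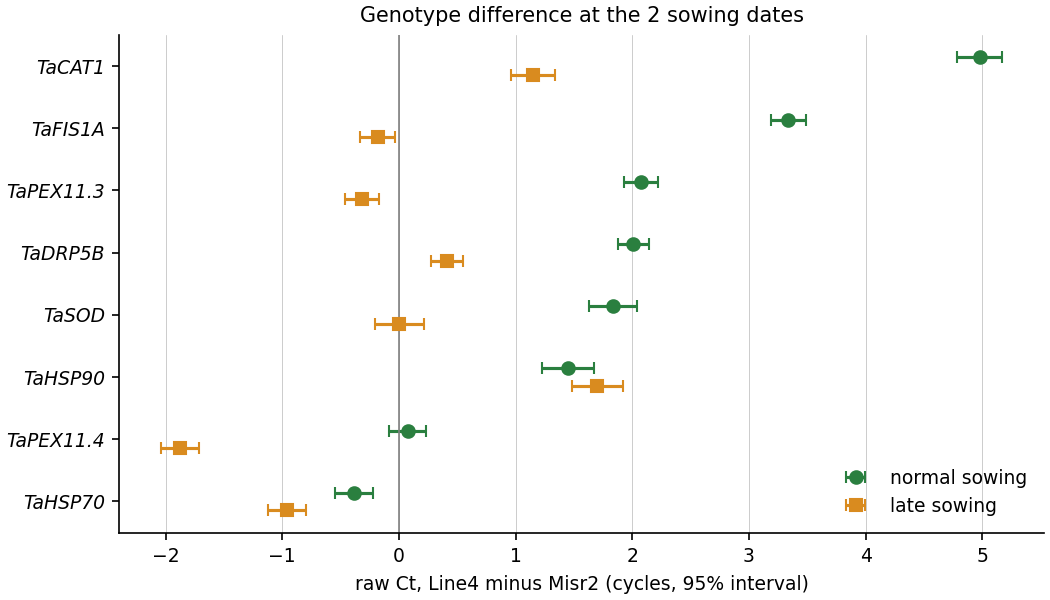
Line4 minus Misr2 difference in raw Ct (cycles) for the 8 genes under normal sowing (circles) and late sowing (squares); bars are 95% intervals of the limma fit. The circles lie right of the squares in all genes but *TaHSP90*, where −0.25 cycles between them did not pass the test.

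Relative to the panel mean, which removes the shift of the whole panel, the genotype difference depended on the sowing date in 6 of the 8 genes by the limma contrast (75.0%), of which 3 were more positive (37.5%) and 3 more negative (37.5%) under normal sowing. *TaPEX11.4* differed between the genotypes by −1.85 cycles under normal sowing and by −1.87 cycles under late sowing, and the dates differed by 0.02 cycles (95% interval −0.20 to 0.24, limma adjusted p = 0.860). With the panel mean taken without *TaCAT1* that contrast was 0.29 cycles and was called (limma adjusted p = 0.0162). *TaSOD* did not pass the test either, with −0.10 cycles between the dates (95% interval −0.35 to 0.15, limma adjusted p = 0.490). The *TaCAT1* difference was still wider under normal sowing, at 3.05 cycles against 1.16 cycles under late sowing. *TaFIS1A* differed by 1.42 cycles under normal sowing and by −0.17 cycles under late sowing. *TaHSP90* differed by −0.47 cycles under normal sowing and by 1.71 cycles under late sowing, a difference of −2.18 cycles (95% interval −2.44 to −1.93). *TaPEX11.3* differed by 0.16 cycles under normal sowing and by −0.31 cycles under late sowing, with 0.46 cycles between the dates (limma adjusted p = 0.000223). *TaDRP5B* differed by 0.09 cycles under normal sowing and by 0.42 cycles under late sowing, and the −0.33 cycles between the dates (limma adjusted p = 0.00538) were no longer called, at −0.06 cycles, with the panel mean taken without *TaCAT1*. *TaHSP70* differed by −2.31 cycles under normal sowing and by −0.95 cycles under late sowing. Of the 28 gaps, 25 depended on the sowing date (89.3%), 9 with a more positive gap difference under normal sowing (32.1%) and 16 with a more negative one (57.1%).

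The spread between replicates was small beside these differences. Under normal sowing the SD between the 3 replicates had a median of 0.0564 cycles over the 16 combinations of gene and genotype, and a range of 0.0173 to 0.177 cycles. The SD between wells of a replicate had a median of 0.178 cycles in Line4 and 0.115 cycles in Misr2. Noise of that size would by itself give means of 3 wells an SD of 0.0856 cycles in the median, and the replicate SD was below the value expected from well noise in 11 of the 16 combinations. The limma p-values rest on the spread between replicate means of all 4 groups, moderated over genes or gaps. Under late sowing the replicate SD had a median of 0.0932 cycles. How far this spread includes differences between plants was not tested.

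**Figure D5:**
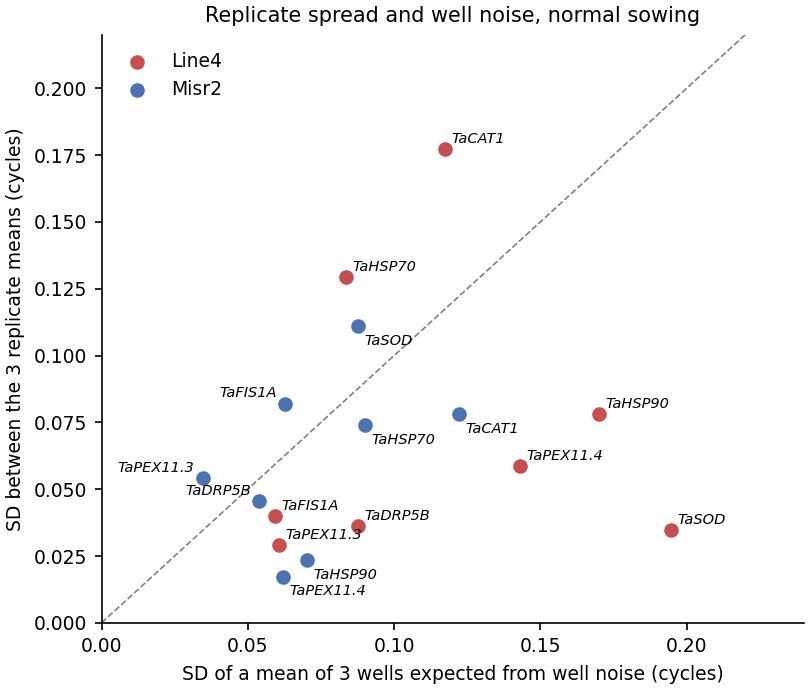
SD between the 3 replicate means (cycles, vertical axis) against the SD that well noise alone would give a mean of 3 wells (cycles, horizontal axis) for each gene under normal sowing, in Line4 and Misr2; the dashed line marks equal values. Of the 16 points 11 lie below the line, and the highest is *TaCAT1* in Line4, at 0.177 cycles.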

How the data were processed

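Per the labels, 50 ng of RNA was reverse transcribed and quantitative PCR with SYBR Green ran for 40 cycles. The authors deposited raw Ct values per well, a score on a log2-like scale without normalization, and these were used as given. A second deposited table holds the authors' linear ratios of stressed over control plants, normalized to Actin-7, and was not used. Values normalized to a reference gene were not used here. Successive sets of 3 wells were averaged. Group means of the 4 groups were fitted with a shared variance per gene or gene pair, moderated with limma 3.58.1 in R 4.3.3, and two-sided p-values received a Benjamini-Hochberg adjustment over 8 genes or 28 pairs. Contrasts were Line4 minus Misr2 under normal sowing, and that difference minus the one under late sowing. The code was tested on simulated data. Exact permutation tests and tables used Python 3.11.15, numpy 2.4.6, pandas 2.3.3 and scipy 1.17.1. Gene names came from the study and the IWGSC CS RefSeq 2.1 annotation, and no positions are given because the tables name no genome build. All 8 genes are named, with the 8 gaps within functional groups and the 3 gaps that changed most and the 3 that changed least. The gaps between neighbours in the order of the differences, and the date contrast relative to the panel with its alternatives, were added after their values were seen. The members, lists and tests were chosen with earlier results of these data known. A Ct has no count behind it, so precision rests on 3 replicates of 3 wells. Amplification efficiency was not measured here. Alternatives covered wells as replicates, other sets of wells, medians, unmoderated variances, the 2 normal-sowing groups alone, unmatched genes and Tukey's test. They also covered wells above 35 cycles left out, other centring, an efficiency of 90% and each replicate left out. A further alternative, chosen after seeing the data, left out the normal-sowing wells with recurring decimals.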

Additional observations from a re-analysis of the deposited data

Results flagged for a closer look

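The genotype difference differed between the sowing dates by the limma contrast, Line4 minus Misr2 under normal sowing minus the same difference under late sowing. On raw Ct this held for *TaHSP70* (0.57 cycles), *TaCAT1* (3.83 cycles), *TaSOD* (1.83 cycles), *TaPEX11.3* (2.39 cycles), *TaPEX11.4* (1.95 cycles), *TaFIS1A* (3.52 cycles) and *TaDRP5B* (1.60 cycles). All of these share the shift of the panel mean, which was lowest in normally sown Misr2.

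The gaps between 2 genes do not carry that shift. Over all 28 gaps, 25 depended on the sowing date (89.3%). Among them were the 8 gaps within the functional groups, 1 of them only narrowly. The values of these 8 were 0.83 cycles for *TaHSP70* minus *TaHSP90* and 2.00 cycles for *TaCAT1* minus *TaSOD*. Among the peroxisome genes they were 0.44 cycles for *TaPEX11.3* minus *TaPEX11.4*, −1.13 cycles for *TaPEX11.3* minus *TaFIS1A*, 0.79 cycles for *TaPEX11.3* minus *TaDRP5B*, −1.57 cycles for *TaPEX11.4* minus *TaFIS1A*, 0.35 cycles for *TaPEX11.4* minus *TaDRP5B* and 1.92 cycles for *TaFIS1A* minus *TaDRP5B*. The one for *TaPEX11.4* minus *TaDRP5B* was close to the threshold (limma adjusted p = 0.0434) and lost its call without Line4 replicate 1 or 2 and without Misr2 replicate 1 or 3 (0.31 to 0.37 cycles).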

How the results depend on the processing

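Over 18 alternatives, 776 of 804 values kept their direction and their side of the threshold, 12 lost the call, 10 gained it and 6 changed sign. Part of this tally was fixed in advance. Wells as replicates, other sets of wells and the normal-sowing groups alone left each difference unchanged. So did unmoderated variances, unmatched genes and Tukey's test, and these alternatives could alter only the call. The alternative efficiency rescaled all values alike, so direction and call could not change. The tally is thus not a measure of robustness. Of 85 counts 84 stayed within 1.5 times the reported one. Without wells above 35 cycles 12 of the 15 gaps still testable depended on the sowing date, against 25 of 28, because *TaPEX11.3* and *TaHSP90* then had a group with no wells, and Ct relative to the panel mean could not be computed. *TaPEX11.4* differed by −0.0132 cycles with the median of wells (limma adjusted p = 0.894). Relative to the panel median, *TaSOD* differed by 0.10 cycles (limma adjusted p = 0.445) and *TaHSP90* lost its call at −0.29 cycles. Relative to the 7 genes without *TaCAT1*, *TaSOD* differed by 0.35 cycles (limma adjusted p = 0.000237). With only the normal-sowing groups fitted, *TaSOD* minus *TaPEX11.3* and *TaSOD* minus *TaDRP5B* were called (limma adjusted p = 0.00502 and 0.0439). An unmoderated fit of the 4 groups called neither (adjusted p = 0.0659 and 0.263). The dependence of *TaPEX11.4* minus *TaDRP5B* on the sowing date lost its call under 7 alternatives, among them leaving out Line4 replicate 1 (0.37 cycles), Line4 replicate 2 (0.31), Misr2 replicate 1 (0.32) or Misr2 replicate 3 (0.35). The date contrast relative to the panel turned for *TaPEX11.4*, to −0.0662 cycles with the median of wells and −0.0575 cycles relative to the panel median, and for *TaSOD*, to 0.17 cycles without *TaCAT1*, and none of these was called. The order of *TaHSP90* and *TaSOD* lost its call with each well as a replicate and with medians of wells (limma adjusted p = 0.113 and 0.0843). The cause of these changes was not tested. With each replicate left out, 7 raw differences, 5 relative to the panel and 25 gaps were called every time, and 7 raw differences, 6 relative to the panel and 24 to 26 gaps depended on the sowing date. No paired analysis was possible because the labels give no replicate numbers.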
